A study of Mus musculus with 16 samples.

Results

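Bcl2 and its relatives decide whether a cell keeps the outer membrane of its mitochondria intact or opens it and dies. Some proteins of the family restrain the pore-forming proteins Bax and Bak, while the BH3-only proteins bind the restraining ones and set the pores free. Lymphocytes and myeloid cells lean on different family members, and the balance shifts with activation and with cytokine signals. The 6 genes measured here were chosen by name from the family: Bcl2, Bcl2l1, Mcl1, Bcl2a1b and Bcl2a1d, which act for survival, and Bcl2l11, which acts for death. They are 6 of the 24469 gene symbols that the 25127 names of the count tables give, and each was found in all 16 libraries. Bcl2l1 encodes Bcl-xL, Mcl1 a short-lived survival protein, Bcl2a1b and Bcl2a1d are near-identical copies that encode A1 proteins, and Bcl2l11 encodes Bim.

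Tumors of MC38, a mouse colon adenocarcinoma line, grew in C57BL/6 mice that carried or lacked *Aire*, a thymic regulator of self-antigen expression, and the study asked how loss of *Aire* changes the response to PD1 blockade. Littermates (*Aire*+/+ and *Aire*-/-, 8 weeks old) received the anti-PD1 antibody RMP1-14 or an isotype antibody, and tumors and spleens were taken on day 19. The tumors of 4 to 6 mice were pooled for each condition, as were the spleens, and CD45-positive or CD8-positive cells were sorted and sequenced with a 10x kit. Each of the 4 conditions therefore gave 1 library per tissue and sort, 16 in all, and no condition has a replicate library. The paper describes a 3′ kit for such cells and a 5′ kit for those with paired T cell receptor libraries. It lists receptor sequences for CD8 libraries with the same cell numbers as the CD8 libraries here. Which kit made each library is therefore not certain. Every list of 4 values goes by genotype, *Aire*+/+ first, and within a genotype by treatment, isotype before anti-PD1. Aire itself had 1, 0, 1 and 0 UMIs in the CD8 T cells of the tumor CD8 sort, too few to check the genotype of a library.

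Total UMIs were 38930017, 28760714, 24639370 and 23282799 in the tumor CD45 libraries and 35163274, 27052444, 22414023 and 23271160 in the tumor CD8 libraries. The spleen held 12131827, 10927391, 11179227 and 12618095 in the CD45 sort and 20126140, 19167788, 15590029 and 16279427 in the CD8 sort. Median UMIs per cell were 11892, 11858, 12252 and 9889 in tumor CD45 against 4549, 4414, 4733 and 4502 in spleen CD45 cells, and 11164, 10349, 10198 and 8883 against 6405, 6304, 6282 and 5801 in the CD8 sort. Cells of the tumor were thus deeper than cells of the spleen in every condition and sort, so levels are given as CPM, the UMIs of a gene scaled to the same total of UMIs in the gated cells of each library. Any pair of libraries shared at most 18 barcodes, and for any pair the shared barcodes were at most 0.84% of the smaller library.

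Cell types were gated on UMIs of markers, none of them a member, and a cell that passed no gate or several gates was not used. Cells in several gates numbered 0 to 27 per library, and no other step removed doublets, so doublets within a cell type and those that passed a single gate were kept. Between 68.4% and 76.1% of the tumor CD45 cells, 87.6% and 90.2% of the spleen CD45 cells, and 95.6% to 97.7% of the CD8-sorted cells fell in 1 gate. CD8 T cells numbered 2476, 2113, 1770 and 2144 in the tumor and 2717, 2765, 2219 and 2457 in the spleen of the CD8 sort. The tumor CD45 sort held 914, 602, 415 and 152 macrophages, 628, 391, 324 and 242 monocytes, 103, 129, 154 and 264 NK cells and 120, 80, 35 and 69 Treg cells, while the spleen held 84, 58, 52 and 32 monocytes, 84, 49, 57 and 54 NK cells and 30, 35, 45 and 54 Treg cells. B cells dominated the spleen with 1378, 1434, 1333 and 1695 cells. T cell markers summed to 7473, 8184, 8472 and 8502 CPM in tumor CD8 T cells and were at most 6.59 CPM in tumor macrophages, and B cell markers summed to 7746, 8139, 8238 and 8428 CPM in splenic B cells. NK markers, with Gzma the most abundant, summed to 6827, 5882, 8619 and 8722 CPM in tumor and 18620, 16090, 16780 and 22250 CPM in splenic NK cells. The T, B and NK marker lists hold genes that also define the gates, so these sums are set in part by the gates. They are no separate check of the cell types. Of the marker genes, Ighm, Igkc and Trac had no entry in the tables.

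The level of each member in every cell type was compared in the CD45 sort, over the 15 combinations of cell type and tissue with at least 3 libraries of at least 20 gated cells. Values are means ± SD in CPM over 4 libraries, or over 3 for tumor neutrophils and tumor CD4 T cells, and the SD covers differences between conditions as well as error. The levels of a gene are ordered across cell types and not against another gene, since the UMI counts, from a 3′ or 5′ kit, carry no length. Cell types with fewer libraries of that size, such as cDC1 and pDCs, did not enter this order.

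Bcl2, the founding survival gene, was highest in NK cells, at 294 ± 29.7 in the spleen and 283 ± 49.4 in the tumor. Next came the T and B cells, with 256 ± 34.4 in splenic and 172 ± 38.4 in tumor CD8 T cells, 188 ± 37.8 in splenic and 106 ± 49.1 in tumor CD4 T cells, 127 ± 7.45 in B cells and 97.1 ± 54.4 in splenic Treg cells. Myeloid cells had less: 58 ± 24.9 in splenic monocytes, 23.3 ± 10.1 in tumor cDC2, 14.2 ± 1.8 in macrophages, 10.6 ± 3.01 in tumor monocytes, 2.27 ± 0.521 in mature DCs and 1.32 ± 2.28 in neutrophils. Tumor Treg cells stood apart from every other lymphocyte at 4.41 ± 1.31. Ranges of neighbours in this order overlapped except between splenic monocytes and cDC2, between tumor monocytes and tumor Treg cells, and between tumor Treg cells and mature DCs. The last of these gaps, 2.92 against 2.84 CPM, rests on a tumor Treg library with 1 UMI, so it was not settled at this depth. NK cells of the tumor headed the order when cells were thinned to equal depth.

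Bcl2l1 was highest in tumor Treg cells, at 116 ± 5.32, and in tumor neutrophils, at 90.1 ± 27.4, which headed the order after thinning. Macrophages had 72.8 ± 9.83, tumor CD4 T cells 57.9 ± 26.4, mature DCs 46.5 ± 6.39, tumor monocytes 41.2 ± 14.4, splenic NK cells 36.9 ± 7.78 and tumor CD8 T cells 36.6 ± 8.08. Lower still were splenic Treg cells at 26.1 ± 11.3, tumor NK cells at 20.4 ± 6.93, splenic CD4 T cells at 16.9 ± 4.06 and cDC2 at 14.5 ± 5.29. Splenic CD8 T cells (8.08 ± 2.84), splenic monocytes (7.03 ± 6.64) and B cells (1.75 ± 0.661) closed the order. Each pair of neighbours overlapped, so the order is a gradient and not a set of classes.

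Mcl1 separated the myeloid cells of this order from the lymphocytes. Splenic cDC1, which did not enter it, had 114 ± 8.53 CPM over 3 libraries of the CD8 sort, among the lymphocyte levels. Tumor neutrophils had 799 ± 99.8, macrophages 689.6 ± 121 and tumor monocytes 666 ± 69.6, each overlapping the next, and with doubled gate minimums macrophages came first. Below a gap lay cDC2 at 423 ± 94.3, mature DCs at 372 ± 21.9 and splenic monocytes at 343 ± 30.1. B cells followed alone at 156 ± 9.73, clear of both neighbours. The remaining 8 lymphocyte groups ran from 133 ± 6.37 in tumor CD4 T cells through splenic Treg (114 ± 9.29), tumor Treg (109 ± 29.8), tumor CD8 T (102 ± 10.3), splenic NK (89.6 ± 10.5), splenic CD8 T (89.2 ± 6.76) and tumor NK cells (82.8 ± 5.9) to 81 ± 9.71 in splenic CD4 T cells, each overlapping the next.

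Bcl2a1b reached 2821 ± 150.2 in mature DCs of the tumor and 1316 ± 174 in neutrophils, and each stood clear of the next cell type. Macrophages (721 ± 79.2) overlapped tumor CD4 T cells (696 ± 68), which stood above tumor CD8 T cells (525 ± 45.6). An overlapping series then ran through tumor Treg cells (509.8 ± 77.9), cDC2 (356 ± 139), tumor monocytes (305 ± 111), tumor NK cells (241 ± 46.3), splenic monocytes (202 ± 92.1) and splenic Treg (181 ± 44.4) and CD4 T cells (107 ± 24.2). The lowest levels were in the other splenic lymphocytes, B cells (67.8 ± 6.17), NK cells (41.2 ± 6.9) and CD8 T cells (36.9 ± 7.81), with B cells clear of both sides.

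Bcl2a1d followed a similar order: mature DCs first at 1483 ± 90.8, clear of the rest, then tumor CD4 T cells (415 ± 98), neutrophils (364 ± 63.9) and tumor CD8 T cells (335 ± 30.1). Tumor Treg cells (259 ± 27.7), cDC2 (253 ± 56.5) and macrophages (253 ± 18.9) formed the next overlapping group, and splenic monocytes (139.9 ± 58.1), tumor monocytes (134 ± 41.6) and tumor NK cells (108 ± 22.2) the one after. Splenic CD4 T (45.7 ± 15.9), Treg (31 ± 20.7) and B cells (25.4 ± 3.28) each overlapped the next and lay above splenic CD8 T (6.07 ± 2.9) and NK cells (5.76 ± 5.77).

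Bcl2l11, the death gene of the set, was highest in tumor NK cells at 244 ± 72.7 and tumor neutrophils at 210.5 ± 47.2, and their ranges overlapped. Neutrophils lay above tumor monocytes in every library, although the lowest NK library did not. From there each cell type overlapped the next: tumor monocytes 127 ± 29.8, macrophages 119 ± 34.9, tumor CD8 T cells 88 ± 7.72, cDC2 80.4 ± 22.7, mature DCs 63.9 ± 34.2 and tumor CD4 T cells 57.8 ± 28. Splenic NK cells had 46.5 ± 16.3, splenic CD8 T cells 33 ± 7.21, splenic monocytes 27.4 ± 6.77, splenic CD4 T cells 24.7 ± 6.37, splenic Treg cells 23.3 ± 11, B cells 21.4 ± 2.3 and tumor Treg cells 20.5 ± 5.52. Tumor Treg cells were thus the single tumor cell type among the splenic ones for this gene.

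**Figure D1:**
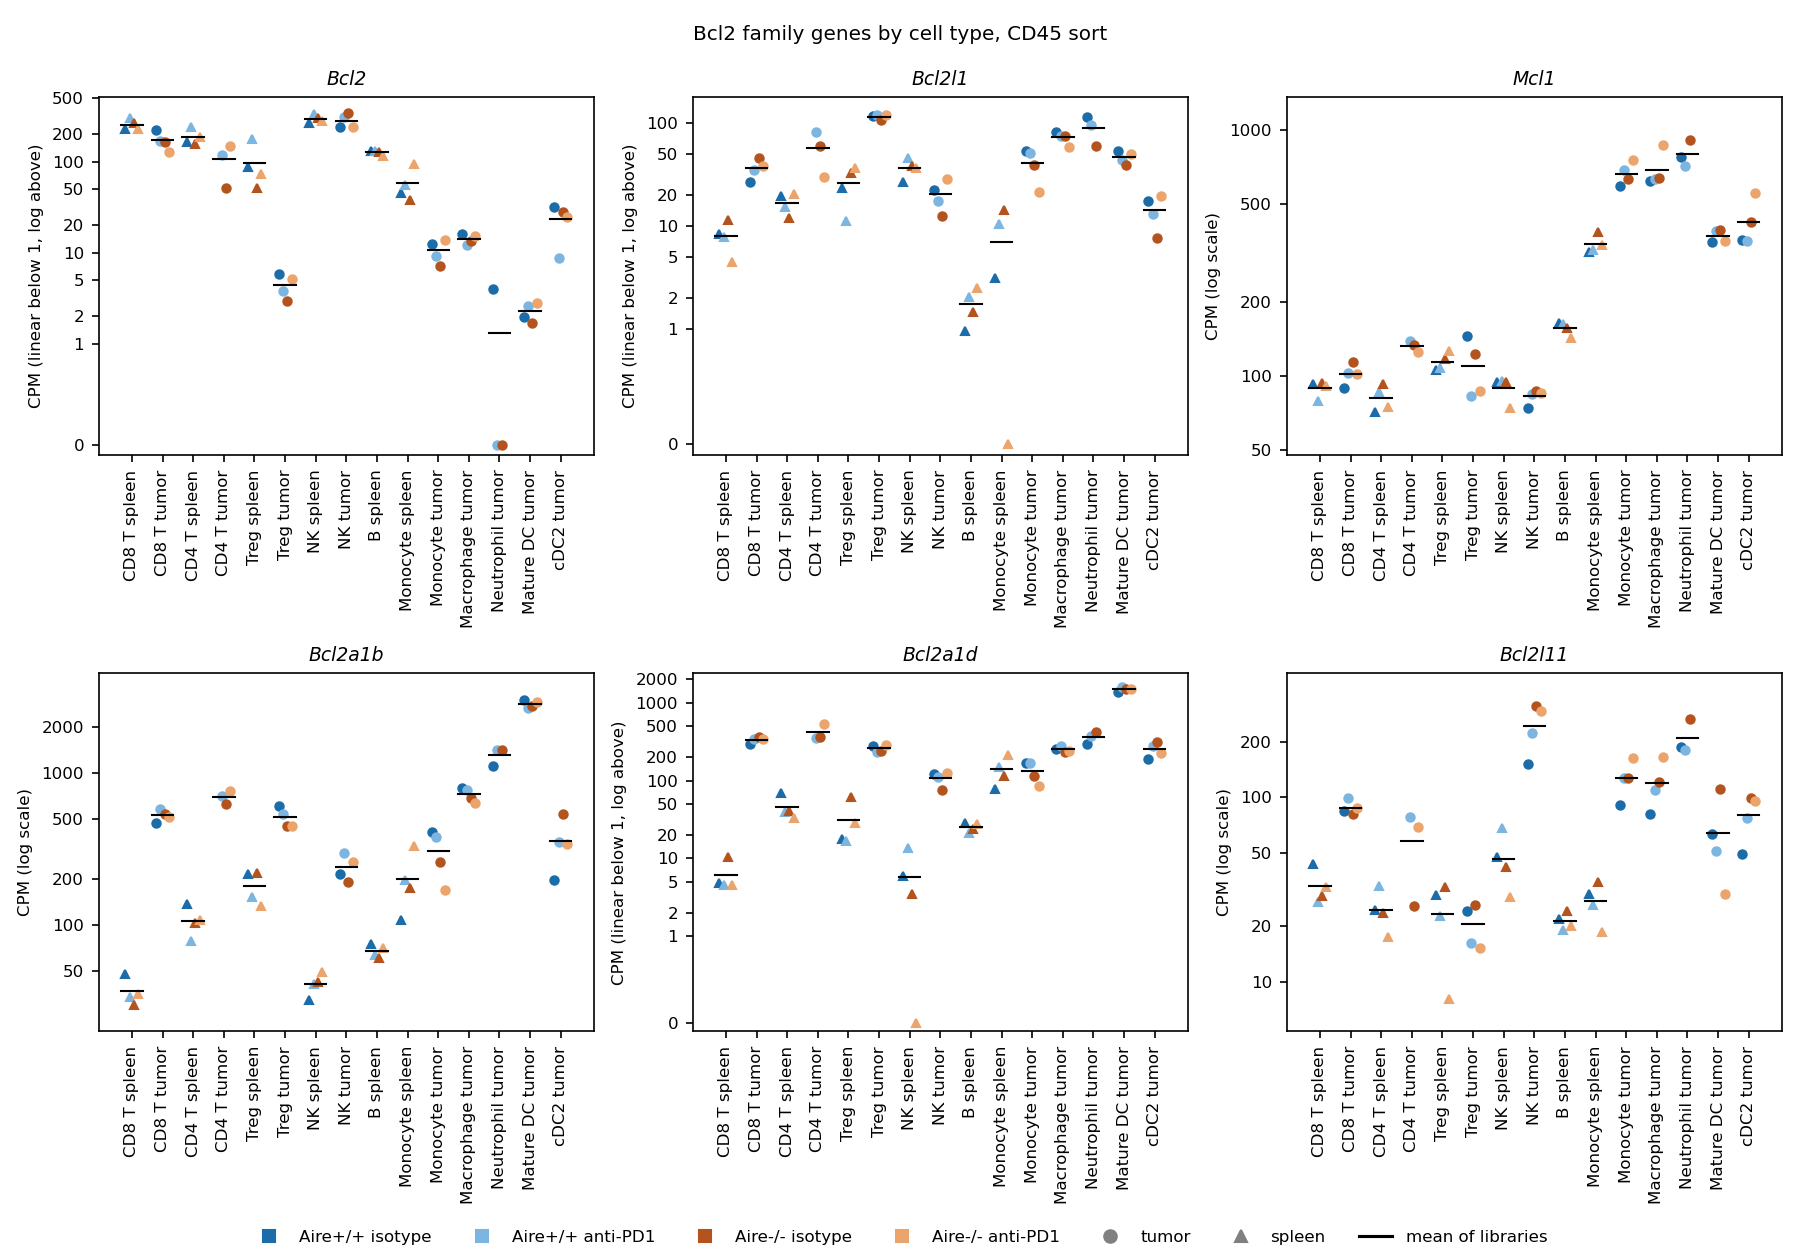
CPM of each member (vertical axis, logarithmic, linear below 1 where a library lies there) in each cell type of the CD45 sort, with 1 point per library, circles for tumor, triangles for spleen, color for condition and a black line for the mean. Bcl2 is highest in NK cells (mean 294 in the spleen) and Bcl2a1b in mature DCs of the tumor (mean 2821).

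Tumor was compared with spleen within a cell type, a comparison that asks how the members differ between cells at the tumor site and their counterparts in spleens of the same condition. edgeR tested it with the 4 conditions as blocks, so that the error is how far the tissue difference varied between conditions, with 3 residual degrees of freedom and adjusted p over all genes tested. Tumors had been dissociated with enzymes and spleens mechanically, so tissue and dissociation cannot be told apart in any of these comparisons. CD4 T cells had 19 cells in 1 tumor library and were not tested, and the test in Treg cells was added after the cell numbers had been seen.

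In CD8 T cells of the CD8 sort, Bcl2 measured 205, 157, 166 and 134 CPM in the tumor and 244, 271, 199.8 and 208 CPM in the spleen. The tumor value was the lower of the pair in 4 of 4 conditions, although the highest tumor library lay above the lowest splenic one (log2 fold change -0.57, SE 0.10, adjusted p 0.00122, edgeR). The CD45 sort gave 222, 170.4, 165 and 129 CPM against 229.8, 299, 268 and 226 CPM, without overlap and lower in 4 of 4 conditions (log2 fold change -0.70, SE 0.11, adjusted p 1.4e-05). Bcl2 thus fell in tumor CD8 T cells in both sorts.

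Bcl2l1 measured 28.9, 38.5, 38.1 and 35.3 CPM in tumor CD8 T cells of the CD8 sort and 8.26, 8.15, 8.4 and 8.42 CPM in splenic ones, every tumor library above every splenic one (log2 fold change 1.99, SE 0.08, adjusted p 6.2e-07). The CD45 sort gave 26.6, 35.3, 46.1 and 38.6 against 8.42, 7.92, 11.4 and 4.52 CPM, again without overlap (log2 fold change 2.13, SE 0.23, adjusted p 1.5e-07). Bcl-xL transcripts were therefore several times more frequent per UMI in the tumor. Mcl1 showed no such shift: 74.8, 86.6, 82.4 and 88.5 CPM in the tumor and 72.2, 91, 103 and 80.2 CPM in the spleen overlapped (log2 fold change -0.13, SE 0.08, adjusted p 0.147), and so did 89.2, 102, 114 and 102 against 92.6, 79.2, 93.7 and 91.3 CPM in the CD45 sort (log2 fold change 0.10, SE 0.10, adjusted p 0.419), where thinning turned the fitted value to -0.33. Neither Mcl1 value passed the test, which does not show that the levels were equal.

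The A1 copies had the largest rises of the 6 members in CD8 T cells. Bcl2a1b measured 499.9, 578, 518 and 525 CPM in tumor CD8 T cells of the CD8 sort against 30.8, 24.8, 31.5 and 34.7 CPM in the spleen (log2 fold change 4.04, SE 0.10, adjusted p 6.0e-08), higher in 4 of 4 conditions. Bcl2a1d measured 304, 379.9, 341 and 344 against 5.38, 4.1, 6.42 and 7.69 CPM (log2 fold change 5.79, SE 0.14, adjusted p 6.1e-08). For both copies the lowest tumor library lay far above the highest splenic one. In the CD45 sort Bcl2a1b had 470.4, 579, 539 and 513 against 48.1, 33.9, 30.2 and 35.3 CPM and Bcl2a1d 293, 341, 364 and 344 against 4.81, 4.52, 10.4 and 4.52 CPM, with log2 fold changes of 3.75 and 5.68 (adjusted p 1.6e-15 and 3.1e-16). Ordered by fold change, Bcl2a1d was gene 168 from the top of 11320 in the CD8 sort and 93 of 7670 in the CD45 sort, and Bcl2a1b was 381 and 212.

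Bcl2l11 was also higher in the tumor, with 75.1, 88.2, 97.9 and 84.5 CPM against 25, 30.5, 27.3 and 28.3 CPM in the CD8 sort and no overlap (log2 fold change 1.55, SE 0.07, adjusted p 8.9e-07). The CD45 sort gave 84.5, 98.9, 81.1 and 87.5 against 43.3, 27.1, 29.1 and 32.6 CPM (log2 fold change 1.33, SE 0.15, adjusted p 1.6e-07), higher in 4 of 4 conditions. The death gene and a part of the survival genes rose together in tumor CD8 T cells. Counted over the 6 members in the CD8 sort, 4 were called higher in the tumor, beside 37.6% of all genes tested, and 1 lower, beside 39.6%. The CD45 sort gave the same counts, 4 higher beside 27.7% and 1 lower beside 28% of all genes. A call was thus common in both comparisons, and the size of the change sets the A1 copies apart more than the call does.

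NK cells had Bcl2 at 242, 306, 341 and 241 CPM in the tumor and 263, 331, 302 and 279 CPM in the spleen, values that overlapped. The fit with TMM called Bcl2 higher in the tumor (log2 fold change 0.31, SE 0.12, adjusted p 0.0383), but scaling by library totals only turned it to -0.07, together with a shift of the median of all genes to -0.40, and leaving out any 1 condition gave 0.23 to 0.36 with no call. The direction of Bcl2 in NK cells therefore depends on the scaling. Mcl1 (74.1, 84.5, 87 and 85.5 against 94.4, 95.3, 94.8 and 73.9 CPM) was not called, and its fitted value of 0.25 became -0.13 with library totals only. Bcl2l1 was lower in the tumor in 4 of 4 conditions, 22.6, 17.6, 12.7 and 28.9 against 26.6, 45.4, 38.6 and 37 CPM, from 9, 10, 11 and 9 splenic UMIs, and was not called (log2 fold change -0.47, SE 0.30, adjusted p 0.231), whereas library totals only called it lower at -0.85 (adjusted p 0.0291).

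The A1 copies and Bcl2l11 rose in tumor NK cells under every scaling run. Bcl2a1b had 218, 297, 192 and 259 CPM in the tumor and 32.5, 40.8, 42.1 and 49.3 CPM in the spleen (log2 fold change 2.91, SE 0.18, adjusted p 3.9e-11). Bcl2a1d had 121, 111, 75.4 and 123 against 5.9, 13.6, 3.51 and 0 CPM, the splenic values resting on 2, 3, 1 and 0 UMIs (log2 fold change 4.63, SE 0.35, adjusted p 1.1e-09), and without *Aire*+/+ anti-PD1 the fitted value was 5.30. Bcl2l11 had 152, 222, 312 and 292 against 47.2, 68.1, 42.1 and 28.8 CPM (log2 fold change 2.73, SE 0.21, adjusted p 1.8e-09). None of these 3 genes overlapped between the tissues. NK markers changed in the same fit, 5 of 6 lower and 1 higher in the tumor (median -1.10). Ncr1 was at -1.69, Klrb1c at -1.54 and Prf1 at 0.61. Ncr1 and Klrb1c define the NK gate by a fixed minimum of UMIs per cell, and tumor NK cells were deeper than splenic ones. Their CPM therefore depends on the gate as well as on the cells. What the gate and the make-up of the gated cells added was not tested. In NK cells 4 of 6 members were called higher, with Bcl2 among them although it flips with library totals only, beside 22.3% of all genes tested, and 0 lower beside 18.9%.

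Monocytes had Bcl2, Bcl2l1, Mcl1, Bcl2a1b and Bcl2l11 called. Bcl2 measured 12.4, 9.12, 7.15 and 13.7 CPM in tumor monocytes and 45.7, 54.9, 37.7 and 93.8 CPM in splenic ones, without overlap (log2 fold change -2.06, SE 0.24, adjusted p 9.9e-08). Bcl2l1 measured 53.1, 50.8, 39.3 and 21.6 against 3.15, 10.5, 14.5 and 0 CPM, from 2, 4, 5 and 0 splenic UMIs (log2 fold change 2.94, SE 0.36, adjusted p 2.8e-07; 3.54 without *Aire*-/- isotype). Mcl1 rose from 318, 327, 386 and 342 CPM in the spleen to 593, 686, 631 and 753 CPM in the tumor (log2 fold change 1.24, SE 0.12, adjusted p 2.1e-09). Bcl2l11 measured 90.3, 127, 127 and 163 against 29.9, 26.1, 34.8 and 18.8 CPM (log2 fold change 2.34, SE 0.21, adjusted p 8.7e-10). Markers of macrophages, which are themselves high in Mcl1 and low in Bcl2, differed too: 4 of 8 were called higher and 2 lower in tumor monocytes (median 1.21), with C1qa at 2.73, C1qc at 3.32 and Lyz2 at -0.76. The monocyte gate itself sets limits on the UMIs of C1q genes and Lyz2 per cell, so these values depend on the gate as well. The part of macrophages in the changes of the members was not tested.

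The A1 copies in monocytes did not go the same way in all conditions. Bcl2a1b had 410.1, 379.9, 259 and 169 CPM in the tumor and 109, 199, 174 and 328 CPM in the spleen, higher in the tumor in 3 of 4 conditions and lower in *Aire*-/- anti-PD1 (log2 fold change 0.97, SE 0.24, adjusted p 0.0014), and thinning gave 0.57 with adjusted p 0.0624. Bcl2a1d had 168, 169, 114 and 85.2 against 78.8, 149, 116 and 216 CPM, higher in the tumor in 2 of 4 conditions, and was not called (log2 fold change 0.35, SE 0.22, adjusted p 0.189). Its fitted value was 0.76 without *Aire*-/- anti-PD1 (adjusted p 8.2e-04) and -0.03 without *Aire*+/+ isotype, and thinning turned it to -0.29, so its direction rests on single conditions. Neutrophil markers summed to 6226, 19050, 5.8 and 21830 CPM in the splenic monocytes against 101, 18.9, 9.71 and 19.6 CPM in tumor ones, a difference between libraries whose part in these values was not tested. Of the 6 members, 4 were called higher in tumor monocytes, beside 23.7% of all genes tested, and 1 lower, beside 22.1%; library totals only moved the median of all genes to -0.33.

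Treg cells had the largest fall of Bcl2 of the 5 comparisons: 5.83, 3.76, 2.92 and 5.11 CPM in the tumor, from 7, 3, 1 and 3 UMIs, against 88.3, 176, 51.6 and 73.1 CPM in the spleen, from 15, 31, 11 and 18 UMIs (log2 fold change -4.40, SE 0.37, adjusted p 8.7e-09). By fold change it was gene 6 from the bottom of 4095 tested. Bcl2l1 moved the other way, with 117, 119, 108 and 119 against 23.5, 11.3, 32.9 and 36.5 CPM and no overlap (log2 fold change 2.10, SE 0.27, adjusted p 3.7e-06). The pair shows opposite changes of survival genes within a cell type. Mcl1 had 145, 82.7, 123 and 86.9 against 106, 108, 117 and 126 CPM (log2 fold change -0.10, SE 0.20, adjusted p 0.733), with a sign that turned to 0.05 without *Aire*-/- anti-PD1 and 0.01 without *Aire*+/+ anti-PD1. Bcl2a1b had 608, 536, 449.8 and 445 against 218, 153, 221 and 134 CPM (log2 fold change 1.49, SE 0.15, adjusted p 1.0e-07) and Bcl2a1d 281, 233, 237 and 285 against 17.7, 17, 61 and 28.4 CPM (log2 fold change 3.02, SE 0.25, adjusted p 7.4e-09; 3.65 without *Aire*-/- isotype). Bcl2l11, at 24.2, 16.3, 26.3 and 15.3 against 29.4, 22.6, 32.9 and 8.12 CPM, had too few UMIs to pass the filter on low counts. Of the 5 members tested, 3 were called higher in tumor Treg cells, beside 19.1% of all genes, and 1 lower, beside 17.6%.

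CD4 T cells without Foxp3 give values but no test. Bcl2 had 219.5, 119.7, 51.8 and 147 CPM in the tumor and 165, 242, 158 and 187 CPM in the spleen, which overlapped. Bcl2l1 had 59.9, 82.9, 60.5 and 30.3 against 19.7, 15.4, 11.9 and 20.6 CPM, Mcl1 149.7, 138, 134 and 126 against 71.4, 85.7, 92.3 and 74.6 CPM and Bcl2l11 39.9, 78.3, 25.9 and 69.3 against 24.6, 33, 23.7 and 17.4 CPM, of which the last overlapped. Bcl2a1b had 788, 699.7, 626 and 762 against 138, 79.1, 103 and 108 CPM and Bcl2a1d 329, 354, 363 and 528 against 69, 39.5, 40.9 and 33.3 CPM, with tumor values above splenic ones in 4 of 4 conditions for both copies.

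**Figure D2:**
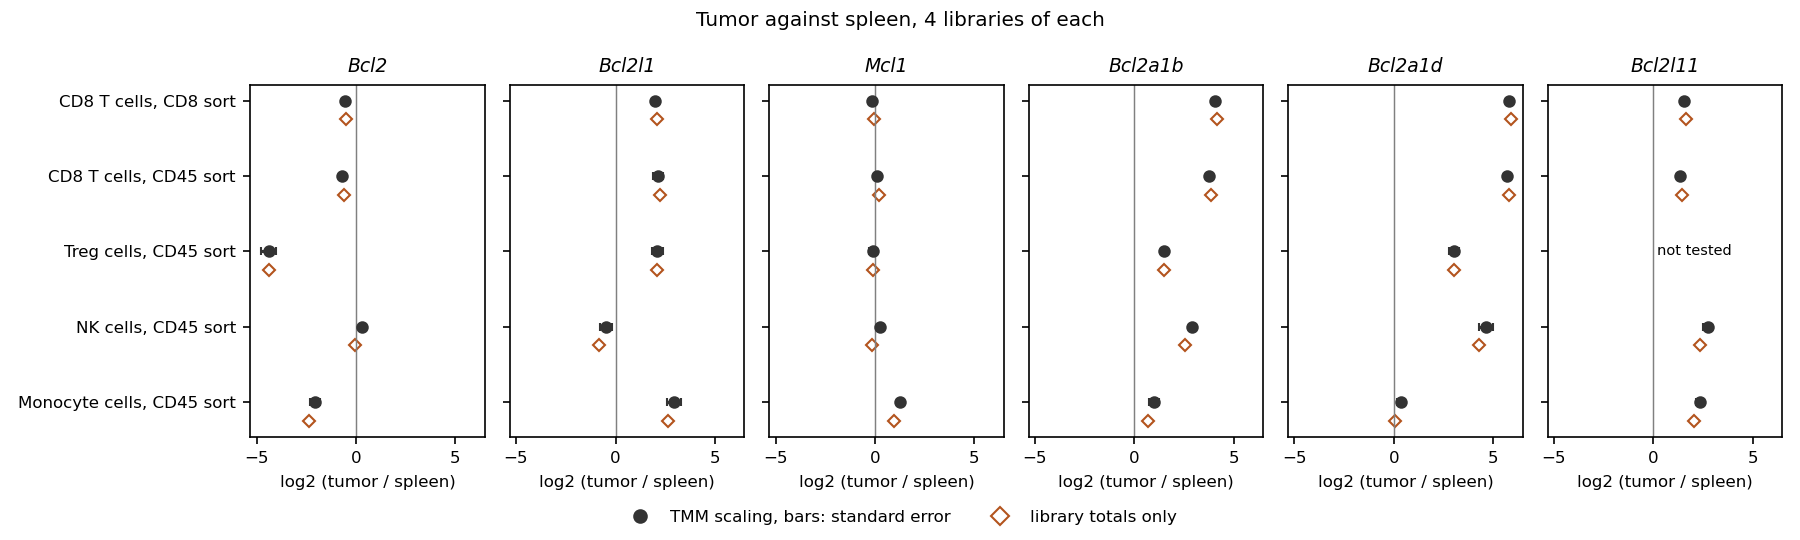
log2 of tumor over spleen for each member from edgeR, with bars of 1 SE, in 5 comparisons of 4 tumor and 4 spleen libraries, with open diamonds for scaling by library totals only. Bcl2a1b and Bcl2a1d lie at 4.04 and 5.79 in CD8 T cells of the CD8 sort, while Bcl2 in NK cells lies at 0.31 with TMM and flips to -0.07 with library totals only.

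Lists of related genes were counted in the same edgeR fits. In CD8 T cells of the CD8 sort the median log2 fold change of all genes tested was -0.03, and that of the 5 survival members was 1.99, with 3 higher, 1 lower and 1 not called. The list of other anti-apoptotic genes and further A1 copies had 3 of 3 tested higher (median 1.72): Bcl2l2 at 1.67, Bcl2a1c at 4.95 and Bcl2a1a at 1.72. Both copies were near the floor. Bcl2a1a had means of 1.48 CPM in the tumor and 0.409 CPM in the spleen, and Bcl2a1c 4.18 and 0.123 CPM. Both pore-forming genes tested were higher (median 0.70), Bak1 at 0.95 and Bax at 0.44. Of 6 other BH3-only genes tested 3 were higher and 2 lower (median 0.03): Pmaip1, which encodes Noxa, rose from 5.11, 4.05, 7.24 and 6.76 CPM in the spleen to 83.1, 103, 77.2 and 78.5 CPM in the tumor (log2 fold change 3.81), while Bbc3, which encodes Puma, was at -1.22 and Bid at -1.21. The other family members had 2 tested and 0 called (median 0.02).

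Among genes that act on the family, cytokine receptors had 4 higher and 2 lower of 7 tested (median 0.60). Il2ra, the high-affinity interleukin-2 receptor chain, was at 5.50, and Il7r fell from 506, 511, 468 and 539.6 CPM to 227, 292, 272 and 238 CPM (-1.07). Receptors for cytokines known to sustain the expression of family genes thus changed in opposite directions. Regulators of the family had 4 higher and 3 lower of 10 (median 0.04), with Nfkb2 at 2.12, Rel at 1.87 and Stat3 at 2.01, and Foxo1 at -1.46 and Foxo3 at -1.05.

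The CD45 sort of CD8 T cells, with a median of -0.04 over all genes, gave 3 survival members higher and 1 lower of 5 (median 2.13), 2 of 2 pore-forming genes higher (median 0.59), and 1 higher and 2 lower of 4 other BH3-only genes (median -0.31). Cytokine receptors had 3 higher and 2 lower of 5 (median 0.49), and regulators 4 higher and 1 lower of 9 (median 0.38). The high median of the survival list came from Bcl2l1, Bcl2a1b and Bcl2a1d in both sorts, while Bcl2 was called lower and Mcl1 was not called.

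In NK cells, where the median of all genes was -0.03, the 5 survival members had 3 higher and 0 lower (median 0.31, the value of Bcl2, which flips with library totals only), and 0 of 2 pore-forming genes were called (median 0.24). Other BH3-only genes had 0 higher and 1 lower of 3 (median -0.46), and receptors 4 higher and 1 lower of 5 (median 0.35), with Il2ra at 5.97 and Il7r at -2.41. Regulators had 4 higher and 2 lower of 10 (median 0.16). NK cells thus shared the rise of the interleukin-2 receptor chain and the fall of Il7r with CD8 T cells.

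Monocytes, with a median of -0.03 over all genes, had 3 survival members higher and 1 lower of 5 (median 0.97), 1 of 2 pore-forming genes higher (median 0.36), and 1 higher and 3 lower of 5 other BH3-only genes (median -0.56), with Pmaip1 at 0.95 and Bmf at -2.54. Receptors had 6 of 6 higher (median 1.67), and regulators 4 higher and 3 lower of 10 (median 0.35). Treg cells, with a median of -0.04, had 3 survival members higher and 1 lower of 5 (median 1.49), 0 of 2 pore-forming genes called (median 0.17), 1 of 2 other BH3-only genes higher (median 1.14), 3 of 5 receptors higher (median 0.42), and 3 regulators higher and 3 lower of 9 (median 0.16). In each of the 5 comparisons the median of the survival members was above that of all genes under TMM.

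Values that bear on handling and on RNA from other cells stand beside these comparisons. Genes of the dissociation response, which activation also raises, summed to 3261, 3753, 3251 and 3718 CPM in tumor CD8 T cells of the CD8 sort and 292, 247, 254 and 270.2 CPM in splenic ones, with Junb the most abundant, and 8 of 9 were called higher (median 3.50). The sums were 2659, 2933, 2889 and 3623 against 929.7, 708, 920.2 and 678 CPM in NK cells, 4389, 3628, 4160 and 4111 against 883, 838, 915 and 796 CPM in Treg cells and 16770, 16710, 13570 and 12710 against 1240, 886, 1117 and 1407 CPM in monocytes. The response was higher in the tumor in every cell type tested, by 7 of 7 genes in NK cells (median 3.06), 8 of 9 in monocytes (median 4.43), 8 of 9 in CD8 T cells of the CD45 sort (median 3.21) and 5 of 5 in Treg cells (median 3.30). The remaining gene in monocytes, Hspa1b, was called lower (log2 fold change -0.91, adjusted p 0.0082, edgeR). How much of the change of any member came with dissociation was not tested.

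Macrophage markers, all 8 detected with C1qb the most abundant, summed to 14.2, 31.5, 34.8 and 47.4 CPM in tumor CD8 T cells of the CD8 sort and 2.28, 1.91, 1.84 and 2.39 CPM in splenic ones, against 18140, 20320, 16620 and 14610 CPM in macrophages. In the CD45 sort they summed to 67.3, 45, 124 and 94.2 CPM in tumor CD8 T cells, 27, 15.8, 20.1 and 13.3 CPM in NK cells and 277, 115, 678 and 98.8 CPM in Treg cells. Bcl2a1a, a further copy of the A1 gene, differed between these cells. Macrophages had 242, 236, 181 and 193 CPM of it beside 799.5, 774, 679 and 631 CPM of Bcl2a1b, whereas tumor CD8 T cells of the CD8 sort had 0.938, 1.37, 1.28 and 2.32 CPM of Bcl2a1a beside 499.9, 578, 518 and 525 CPM of Bcl2a1b. The copies therefore stood in a different ratio in tumor CD8 T cells than in macrophages. Epithelial and tumor markers summed to 11.2, 10.4, 13 and 16.8 CPM in these cells, and erythroid markers to 271, 1.12, 2.46 and 2.72 CPM in splenic CD8 T cells, with 1 library far above the others.

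CD8 T cells of the spleen and tumor differ in make-up, so cells of the CD8 sort were also grouped on Ccl5, Mki67 and Top2a UMIs, groups that were chosen after the data had been seen. Ccl5-positive non-cycling cells numbered 431, 405, 451 and 471 in the spleen and 769, 818, 619 and 1036 in the tumor, and cycling cells of the tumor 663, 420, 349 and 365. Splenic cycling cells reached 20 in the 2 *Aire*-/- libraries alone. Cycling tumor cells had less Bcl2 than Ccl5-positive tumor cells in each condition, 169.7, 117, 120.0 and 106 CPM against 278, 184, 194 and 148 CPM.

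The A1 copies were higher in the tumor within the Ccl5-positive cells. Bcl2a1b measured 555, 672, 595 and 578 CPM in tumor and 39.5, 33.9, 59 and 50.9 CPM in splenic ones, and Bcl2a1d 301, 423, 372 and 372 against 8.14, 7.43, 16.9 and 17 CPM. The tissue difference of the copies was thus present within this group. Bcl2l1 measured 37.3, 46.3, 44.9 and 41.6 against 14.5, 17.5, 17.5 and 18.2 CPM in the same cells. Splenic cycling cells of both *Aire*-/- libraries had 102 and 88.4 CPM of Bcl2a1b, against 461, 525, 507 and 494 CPM in cycling tumor cells. Bcl2 went different ways by group. In Ccl5-positive cells it was lower in the tumor in each condition, at 278, 184, 194 and 148 against 334, 379, 252 and 277 CPM. In cycling cells of the *Aire*-/- libraries it was higher in the tumor, at 120.0 and 106 against 34.1 and 55 CPM. The splenic values rest on 17 and 23 UMIs from 36 and 27 cells. The cycling groups also differed in Ccl5, at 630 and 1479 CPM in the tumor and 7727 and 4299 CPM in the spleen. Naive-type cells, without Ccl5 or Mki67 UMIs, had 228, 148, 179 and 130 CPM in the tumor and 222, 252, 192 and 195 CPM in the spleen.

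The conditions were compared within a cell type and tissue to ask what genotype and treatment did to the members. With 1 library per condition no test was run, and the ratios carry exact intervals that cover counting error only, not the difference between pools of mice. A member was counted when the libraries of a contrast together held 100 or more of its UMIs and it differed by at least 1.5-fold, and the share of all genes that did so is given beside each count. These counts moved with thinning in 5 of 8 cell types and tissues, so the intervals stand beside them. Contrasts are listed as *Aire*-/- over *Aire*+/+ with isotype, *Aire*-/- over *Aire*+/+ with anti-PD1, anti-PD1 over isotype in *Aire*+/+ and anti-PD1 over isotype in *Aire*-/-.

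In tumor CD8 T cells of the CD8 sort 0 of 6 members passed 1.5-fold in any contrast, beside 3.62%, 3.47%, 2.67% and 2.06% of all genes. Bcl2 had the most regular differences below that size: it was lower in *Aire*-/- than in *Aire*+/+ by a ratio of 0.813 (95% interval 0.78 to 0.847) with isotype and 0.85 (95% interval 0.81 to 0.891) with anti-PD1, and lower with anti-PD1 by 0.769 (95% interval 0.739 to 0.799) in *Aire*+/+ and 0.803 (95% interval 0.765 to 0.844) in *Aire*-/-. The CD45 sort, a separate set of libraries of the same conditions, gave 0.743 (95% interval 0.636 to 0.869), 0.757 (95% interval 0.669 to 0.859), 0.767 (95% interval 0.653 to 0.900) and 0.781 (95% interval 0.693 to 0.881). Both sorts put *Aire*+/+ isotype highest and *Aire*-/- anti-PD1 lowest for Bcl2.

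Bcl2l1 in the same cells had ratios of 1.32 (95% interval 1.2 to 1.45) for genotype with isotype and 1.33 (95% interval 1.22 to 1.46) for anti-PD1 in *Aire*+/+, and 0.917 (95% interval 0.834 to 1.01) and 0.925 (95% interval 0.838 to 1.02) in the other contrasts. *Aire*+/+ isotype was thus the low library for this gene. Bcl2l11 showed the same shape in the CD8 sort, at 1.3 (95% interval 1.23 to 1.38) and 1.18 (95% interval 1.11 to 1.25), against 0.958 and 0.863. In the CD45 sort Bcl2l11 was at 0.959 (95% interval 0.754 to 1.23) and 1.17 (95% interval 0.922 to 1.49) in the same contrasts, and at 0.884 (95% interval 0.754 to 1.04) and 1.08 (95% interval 0.916 to 1.27) in the others, and each of these intervals included 1. In the CD8 sort Mcl1 lay between 1.02 and 1.16, Bcl2a1b between 0.909 and 1.16, and Bcl2a1d between 0.905 and 1.25. Macrophage markers in these cells, given above, were lowest in *Aire*+/+ isotype and highest in *Aire*-/- anti-PD1, and their part was not tested.

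In the CD45 sort 1 of 6 members passed in tumor CD8 T cells for genotype with isotype, Bcl2l1 at 1.73 (95% interval 1.17 to 2.63), beside 5.69% of all genes, and 0 of 6 in the other contrasts, beside 6.3%, 6.8% and 5.32%. Thinning these small groups moved the count from 1 to 4 and put Bcl2a1b at 0.857 for genotype with isotype and 0.871 for anti-PD1 in *Aire*+/+, so differences of this size were not settled there. Splenic CD8 T cells of the CD8 sort had 0 of 6 members past 1.5-fold for genotype with isotype, beside 3.93%, and 1 of 6 with anti-PD1, beside 5.16%. That member was Bcl2a1d, at 1.88 (95% interval 1.39 to 2.55) from a low level. The treatment contrasts had 0 of 6, beside 1.36% in *Aire*+/+ and 1.74% in *Aire*-/-. Bcl2 was lower in *Aire*-/- in this sort, at 0.819 (95% interval 0.781 to 0.858) with isotype and 0.766 (95% interval 0.733 to 0.802) with anti-PD1, but it was not lower with anti-PD1, at 1.11 (95% interval 1.07 to 1.16) in *Aire*+/+ and 1.04 (95% interval 0.988 to 1.09) in *Aire*-/-. The CD45 sort of splenic CD8 T cells differed, with Bcl2 at 229.8, 299, 268 and 226 CPM, so that with isotype *Aire*-/- was higher and in *Aire*-/- anti-PD1 was lower. The sorts thus gave no common order of conditions for Bcl2 in the spleen. In the CD8 sort Mcl1 was at 1.42 (95% interval 1.32 to 1.53) for genotype with isotype and 0.882 (95% interval 0.818 to 0.951) with anti-PD1. These opposite directions mark *Aire*+/+ isotype as low and *Aire*-/- isotype as high in that sort. The CD45 sort did not repeat this, with Mcl1 at 92.65, 79.2, 93.7 and 91.3 CPM and *Aire*+/+ anti-PD1 lowest.

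Tumor NK cells had 2 of 5 members counted past 1.5-fold for genotype with isotype, beside 11.2% of all genes: Bcl2l11 higher in *Aire*-/- at 2.05 (95% interval 1.76 to 2.39) and Bcl2a1d lower at 0.623 (95% interval 0.498 to 0.777). With anti-PD1 1 of 6 passed, beside 5.59%, Bcl2l1 at 1.64 (95% interval 1.08 to 2.55), which turned to 0.915 as a mean of per-cell CPM and to 0.977 after thinning. With isotype Bcl2l1 went the other way, at 0.56 (95% interval 0.32 to 0.966). It had 24 and 36 UMIs there, too few to be counted. The treatment contrasts had 0 of 5 in *Aire*+/+, beside 5.9%, and 2 of 6 in *Aire*-/-, beside 3.95%, where Bcl2l1 was at 2.28 (95% interval 1.45 to 3.72) and Bcl2a1d at 1.64 (95% interval 1.35 to 1.99). Bcl2l11 was also higher with anti-PD1 in *Aire*+/+, at 1.46 (95% interval 1.24 to 1.72), and in *Aire*-/- over *Aire*+/+ with anti-PD1, at 1.32 (95% interval 1.17 to 1.48). *Aire*+/+ isotype thus had the least Bcl2l11 of the 4 NK libraries. Bcl2 differed in both directions, at 1.41 (95% interval 1.24 to 1.6) for genotype with isotype and 0.788 with anti-PD1, so genotype went opposite ways under the 2 treatments.

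Macrophages had 0 of 6 members past 1.5-fold for genotype with isotype, beside 7.27%, and 1 of 6 with anti-PD1, beside 16.4%, and 0 of 6 for treatment, beside 2.52% in *Aire*+/+ and 8.37% in *Aire*-/-. The count over the 4 contrasts was thus 1, and it was 2 with TMM scaled totals and 8 after thinning. The member that passed was Bcl2l11, and its level was ordered by condition, at 80.9, 109, 121 and 165 CPM: the ratios were 1.49 (95% interval 1.36 to 1.63) and 1.51 (95% interval 1.32 to 1.72) for genotype and 1.35 (95% interval 1.24 to 1.47) and 1.36 (95% interval 1.19 to 1.56) for treatment. Bim transcripts were thus more frequent in *Aire*-/- and with anti-PD1 in each contrast of macrophages. Mcl1 was high in 1 library, *Aire*-/- anti-PD1, with 619, 630.2, 638 and 871 CPM. That library had 152 macrophages, and a median of 11355 UMIs per macrophage against 14580, 14774 and 14416 in the others, a difference whose part was not tested.

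Tumor monocytes had 2 of 6 members past 1.5-fold for genotype with isotype, beside 8.39% of all genes, both lower in *Aire*-/-: Bcl2 at 0.578 (95% interval 0.364 to 0.893) and Bcl2a1b at 0.632 (95% interval 0.588 to 0.679). With anti-PD1 3 of 5 were lower in *Aire*-/-, beside 13.1%: Bcl2l1 at 0.425 (95% interval 0.311 to 0.573), Bcl2a1b at 0.445 (95% interval 0.399 to 0.494) and Bcl2a1d at 0.503 (95% interval 0.431 to 0.586). Bcl2 went the other way with anti-PD1, at 9.12 CPM in *Aire*+/+ and 13.7 CPM in *Aire*-/-. It had 42 and 35 UMIs there, too few to be counted. Treatment gave 0 of 6 in *Aire*+/+, beside 3.17%, and 2 of 5 in *Aire*-/-, beside 6.3%, Bcl2l1 at 0.549 (95% interval 0.396 to 0.752) and Bcl2a1b at 0.651 (95% interval 0.581 to 0.73). The A1 copies of tumor monocytes were thus lower in *Aire*-/- under both treatments, and Bcl2a1a went the same way with 132, 107, 66.2 and 45.6 CPM. Splenic monocytes went otherwise, with 109, 199, 174 and 328 CPM of Bcl2a1b. *Aire*-/- anti-PD1 was thus highest in the spleen and lowest in the tumor. Its splenic value rests on 70 UMIs from 32 monocytes. Those cells also had the highest sum of neutrophil markers of the splenic monocytes, given above, and its part was not tested. Bcl2l11 was higher in *Aire*-/- and with anti-PD1, as in macrophages, at 90.3, 127, 127 and 163 CPM. Macrophage markers in tumor monocytes summed to 8861, 10040, 10660 and 13640 CPM, and whether the make-up of the gate differed between conditions was not tested.

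Tumor Treg cells had 0 of 4 members past 1.5-fold for genotype with isotype, beside 10.4%, and 0 of 4 with anti-PD1, beside 7.2%. Treatment gave 1 of 4 in *Aire*+/+, beside 6.98%, and 0 of 3 in *Aire*-/-, beside 6.26%. The member was Mcl1, lower with anti-PD1 at 0.571 (95% interval 0.423 to 0.762), and 0.709 (95% interval 0.462 to 1.09) in *Aire*-/-. Mcl1 did not pass 1.5-fold as a mean of per-cell CPM, which left a count of 0, or after thinning, which gave a count of 4, each of them Bcl2l1. Splenic B cells had 0 of 5 members past 1.5-fold in each contrast, beside 1.92%, 3.2%, 1.7% and 1.49% of all genes. Bcl2 there was 131, 132, 129 and 116 CPM, and Mcl1 164, 163, 156 and 143 CPM, from 1378, 1434, 1333 and 1695 cells.

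**Figure D3:**
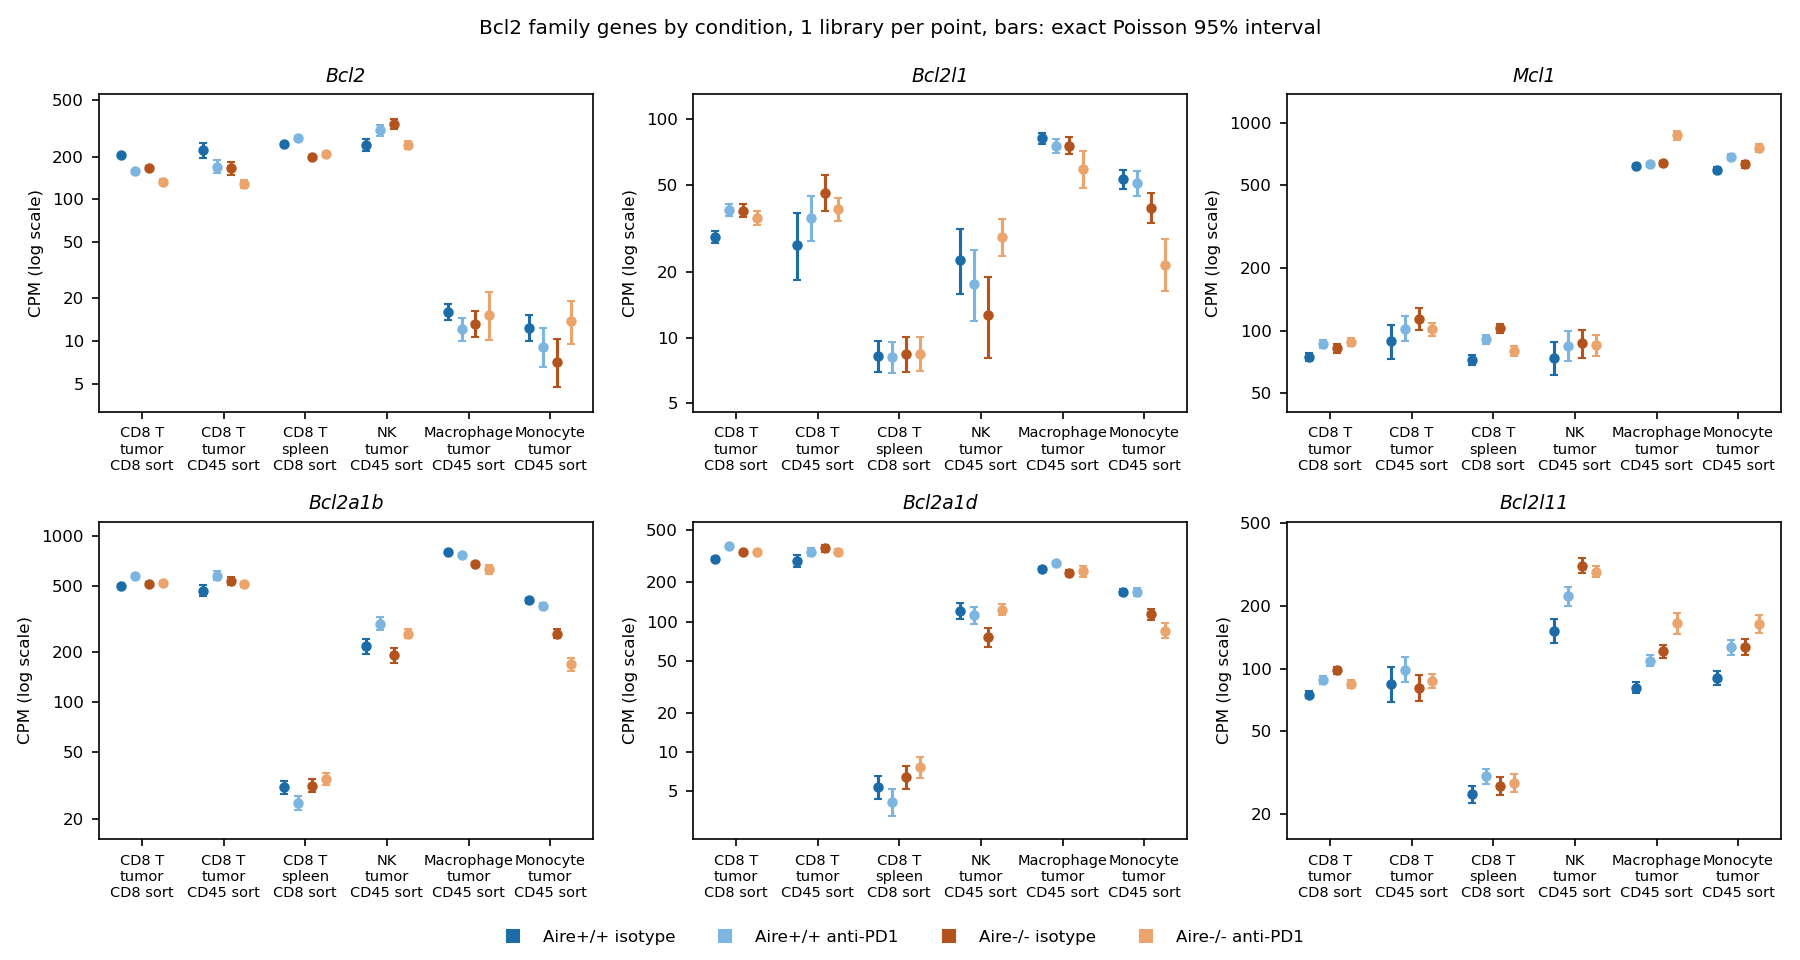
CPM of each member (vertical axis, logarithmic) in 6 cell types by condition, 1 library per point with exact Poisson 95% bars for counting error. Bcl2 in tumor CD8 T cells of the CD8 sort runs from 205 in *Aire*+/+ isotype to 134 in *Aire*-/- anti-PD1, and Bcl2l11 in macrophages from 80.9 to 165 CPM.

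Genes with a pattern like that of a member were sought over the 15 cell type and tissue groups of the CD45 sort among 8497 genes, with Pearson's r of log2 levels and no p, since the groups are not independent. Bcl2 was followed most closely by Zadh2 (0.927), Npm3 (0.912) and Nop10 (0.911), and Bcl2l1 by Prdm1 (0.871), Sra1 (0.851) and Srxn1 (0.845). For Mcl1 the nearest were Ftl1 (0.968), Csf2ra (0.962) and Clec7a (0.960), and for Bcl2l11 they were P2ry14 (0.890), Btg2 (0.881) and Vegfa (0.865). Bcl2a1b and Bcl2a1d were the nearest to each other (0.965), followed for Bcl2a1b by Ndrg1 (0.927) and Gadd45b (0.926) and for Bcl2a1d by Ndrg1 (0.923) and Klf6 (0.886). Between the members, Bcl2 ran against Mcl1 (-0.795), Bcl2a1b (-0.753), Bcl2a1d (-0.697) and Bcl2l1 (-0.586), and was close to unrelated to Bcl2l11 (-0.24).

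Bcl2a1b and Bcl2a1d are hard to tell apart by short reads. The copies lie on chromosome 9 of GRCm38, Bcl2a1d at 88723285 to 88731914 on the minus strand, Bcl2a1a at 88956900 to 88962419 and Bcl2a1b at 89199209 to 89207827 on the plus strand. Their coding sequences have 516 bases, with 6 differences between Bcl2a1b and Bcl2a1d (98.8% identical), 11 between Bcl2a1a and Bcl2a1b and 7 between Bcl2a1a and Bcl2a1d. Of the 55-base windows of each transcript, 55 bases being the length of Read 2, 76.9% of Bcl2a1d, 54.7% of Bcl2a1b and 66.1% of Bcl2a1a also occurred in another copy. Within the last 300 bases, where a 3′ kit reads, the shares were 94.7%, 71.5% and 61.8%. Within the first 300 bases, where a 5′ kit reads, they were 52.4%, 26.4% and 61.8%. A UMI can be given to a copy from a window that is not shared, and the rule used for shared reads is not stated for these libraries, so the split between Bcl2a1b and Bcl2a1d is less certain than their sum. Bases 1 to 90 of the coding sequence, from the GENCODE transcripts of GRCm38, hold 6 of the 12 positions at which Bcl2a1a, Bcl2a1b and Bcl2a1d differ, and those positions are in capitals.
Bcl2a1a: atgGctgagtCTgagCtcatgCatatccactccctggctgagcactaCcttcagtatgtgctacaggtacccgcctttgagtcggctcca
Bcl2a1b: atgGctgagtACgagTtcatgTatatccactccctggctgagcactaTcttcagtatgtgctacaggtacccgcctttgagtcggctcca
Bcl2a1d: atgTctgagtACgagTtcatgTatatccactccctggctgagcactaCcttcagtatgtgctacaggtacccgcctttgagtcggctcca

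The copies are also alike around their start. In the RefSeq promoter windows of GRCm38.p6, which reach into the gene, a stretch of 140 bases that spans the annotated start holds 3 positions that differ among Bcl2a1a (88956830 to 88956969), Bcl2a1b (89199139 to 89199278) and Bcl2a1d (88731801 to 88731940, minus strand), again in capitals. Bcl2a1a carries this stretch with the differences shown, and its level in tumor CD8 T cells was close to 0.
Bcl2a1a: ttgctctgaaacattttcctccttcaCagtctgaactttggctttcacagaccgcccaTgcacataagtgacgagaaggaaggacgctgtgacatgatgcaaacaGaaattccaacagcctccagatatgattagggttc
Bcl2a1b: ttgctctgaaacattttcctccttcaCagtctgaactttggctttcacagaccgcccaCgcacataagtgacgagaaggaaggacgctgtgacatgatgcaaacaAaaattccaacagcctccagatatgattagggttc
Bcl2a1d: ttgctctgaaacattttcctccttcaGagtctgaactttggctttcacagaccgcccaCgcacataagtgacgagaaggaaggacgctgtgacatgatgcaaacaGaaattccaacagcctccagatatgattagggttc

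The other members lie apart: Bcl2 on chromosome 1 at 106538178 to 106714274, Bcl2l1 on chromosome 2 at 152780668 to 152831728, Bcl2l11 on chromosome 2 at 128126038 to 128162547 and Mcl1 on chromosome 3 at 95658788 to 95663176. Short motifs of transcription factors that act on the family were sought in promoters of 300 bases. The NF-κB consensus occurred in 1 of 3 promoters of Bcl2l1, against 4.5% of 32851 promoters, and the forkhead motif in 1 of 2 promoters of Bcl2l11, against 3.65%. Neither motif, nor the STAT motif found in 8.3% of promoters, occurred in the promoters of Bcl2, Mcl1 or the A1 copies.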

How the data were processed

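The deposited counts are the UMIs per gene and cell that the authors made with Cell Ranger from 10x libraries, without normalization. Whether a 3′ or a 5′ kit made each library is not certain. The 27 vector and transgene entries were dropped. Entries were summed by symbol, the part of the name before chromosome and strand. Cells needed 200 genes and at most 20% mitochondrial UMIs, and 12 gates assigned cell types; cells in several gates were dropped and no doublet caller was run. UMIs were summed per library and gate. Levels are CPM with exact Poisson 95% intervals, and ratios by condition have conditional exact intervals; both cover counting error only. Tumor and spleen were compared in edgeR 4.0.16 (R 4.3.3, limma 3.58.1; TMM, filterByExpr, quasi-likelihood test, Benjamini-Hochberg over all genes, threshold 0.05, condition as block). Named genes are the members, the genes of written lists and the 3 genes most like each member (log2 of CPM plus 10, genes of at least 20 CPM). Members and lists were chosen with earlier results of these data known; the Treg test and the CD8 T subsets were chosen after seeing the data. Alternatives were DESeq2 1.42.0, library totals only, tissue only, no filter on low counts, each condition left out, doubled gate minimums, 10% mitochondrial UMIs, cells thinned to 1500 UMIs, the 5% of cells with most UMIs left out, mean of per-cell CPM, TMM scaled totals, and Bcl2a1b and Bcl2a1d summed. Python 3.11.15 with numpy 2.4.6, scipy 1.17.1, pandas 2.3.3 and matplotlib 3.10.9 was used.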

Additional observations from a re-analysis of the deposited data

Results flagged for a closer look

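Bcl2l1, the gene of Bcl-xL, had ratios of tumor over spleen on opposite sides of 1 in different cell types. The ratio of CPM of tumor over spleen was above 1 in all 4 conditions in CD8 T cells of the CD8 sort (geometric mean 4.21), in CD8 T cells of the CD45 sort (4.69) and in Treg cells (4.87), and below 1 in all 4 conditions in NK cells (0.539). The edgeR fit called Bcl2l1 higher in both CD8 T cell comparisons, in Treg cells and in monocytes. It did not call Bcl2l1 in NK cells (log2 fold change -0.47 with TMM, adjusted p 0.231, and -0.23 without *Aire*-/- isotype). Monocytes have no ratio in *Aire*-/- anti-PD1, whose splenic library held 0 UMIs of Bcl2l1. In CD4 T cells, which were not tested, the ratio was above 1 in each condition. The difference between the cell types was not tested, and the splenic NK value rests on 9 to 11 UMIs per library.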

How the results depend on the processing

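For tumor against spleen, 329 of 351 member values under an alternative kept direction and side of the threshold, 10 reversed, 8 lost and 4 gained a call; of 1050 ratios by condition 932 stayed within counting error and 15 reversed, and 60 of 65 gene counts stayed within 1.5 times. The cause was not tested for the changes below.

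After thinning cells to 1500 UMIs, fewer genes were tested and called: 1283 of 2955 in CD8 T cells of the CD45 sort, 839 of 2106 in NK cells, 1431 of 3195 in monocytes and 480 of 1114 in Treg cells, with 5, 5, 4 and 2 members still tested. Mcl1 turned to -0.33 in CD8 T cells of the CD45 sort and -0.078 in NK cells, Bcl2a1d in monocytes to -0.29, and Bcl2a1b in monocytes lost its call at 0.57. Members past 1.5-fold by condition were 2 in splenic CD8 T cells (1 before), 4 in tumor CD8 T cells of the CD45 sort (1), 8 in NK cells (5), 8 in macrophages (1) and 4 in Treg cells (1). Reversed ratios were, in tumor CD8 T cells of the CD45 sort, Bcl2a1b 0.857 and Bcl2a1d 0.961 for genotype with isotype and Bcl2a1b 0.871 for anti-PD1 in *Aire*+/+; Bcl2l1 0.977 for genotype with anti-PD1 in NK cells; for anti-PD1 in *Aire*+/+, Bcl2a1b 1.03 in monocytes and Bcl2a1b 1.06 and Bcl2a1d 1.13 in Treg cells; and Bcl2 1.04 for anti-PD1 in *Aire*-/- B cells. The highest cell type was kept for 4 of 6 members, and for 5 with doubled gate minimums. Of 162 levels by cell type under thinning or doubled gate minimums, 138 stayed the same and 24 moved, 23 of the latter under thinning.

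With the mean of per-cell CPM the counts were 2 in splenic CD8 T cells, 3 in NK cells and 0 in Treg cells, Bcl2l1 in NK cells was 0.915 for genotype with anti-PD1, and Bcl2a1b in Treg cells 1.05 for anti-PD1 in *Aire*+/+. Without the 5% of cells with most UMIs the NK count was 3. Ratios for anti-PD1 in *Aire*+/+ were then 1.003 for Bcl2a1b in monocytes, and 1.05 for Bcl2a1b and 1.12 for Bcl2a1d in Treg cells. In B cells Bcl2a1d was 0.908 for genotype with anti-PD1 and Bcl2a1b 0.949 for anti-PD1 in *Aire*-/-. TMM scaled totals gave a macrophage count of 2.

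Bcl2 in NK cells, at 0.31, lost its call in DESeq2 (0.36, adjusted p 0.0922), with tissue only (0.32, 0.0613) and with doubled gate minimums (0.29, 0.0566), and turned to -0.069 with library totals only, which also gave -0.13 for Mcl1 and a call for Bcl2l1 at -0.85. Leaving out each condition gave 0.23 to 0.36 for Bcl2, without a call. Bcl2a1d in monocytes gained a call without a filter (0.50) and when summed with Bcl2a1b (0.72), and leaving out each condition gave -0.026 to 0.76. Mcl1 in Treg cells turned to 0.034 in DESeq2 and 0.11 without a filter, and leaving out each condition gave -0.26 to 0.055. DESeq2 called 942 genes in Treg cells. With 10% mitochondrial UMIs as the limit, member values kept direction and call.

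Depth limits the small gates: splenic NK and Treg cells held at most 13 UMIs of Bcl2l1 or Bcl2a1d per library, and splenic monocytes at most 5 of Bcl2l1.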
